A study of Danio rerio with 3 samples.

Results

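The genes described here are the collagens, laminins and matrix glycoproteins of the zebrafish embryo, chosen by the start of the gene symbol alone. Symbols that begin with col and a digit, lama, lamb1, lamb2, lamb4, lamc, fn1, fbn, fbln, nid, tnc, tnw, thbs, hapln or matn were taken. The count table of 32520 genes held 99 such genes, and 91 of them had a mean of at least 10 counts over the libraries, among 18966 genes in all that passed this minimum. They comprise 48 collagens, 13 laminins, 28 other glycoproteins, and col4a3bpa and col4a3bpb, whose symbols match the rule but which the gene-name reference gives as CERT1, a ceramide transfer protein of the cytosol and not a matrix component. No gene of the tnw symbol was in the table. Just inside the minimum were lama3, with a mean of 10.3 counts, and hapln4, with 11.7, and just outside were col28a1b and col8a1b, with 6.3 each. The 8 genes left out (these 2, col10a1b, col28a2b, col5a2b, hapln2, nid2b and the shorter of the col19a1 entries) had at most 9 counts in any library, which is too few to compare.

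Extracellular matrix is laid down in layers with separate chemistry. Fibril-forming collagens assemble as triple helices into the banded fibrils of skin, cartilage and the notochord sheath, and fibril-associated collagens with interrupted helices (FACIT collagens) decorate their surface. Basement membranes, the sheets under epithelia and around muscle, vessels and notochord, are built from laminin trimers of an alpha, a beta and a gamma chain and a collagen IV network that nidogens join to the laminins. Fibronectin, fibrillins, fibulins, tenascins, thrombospondins, link proteins and matrilins fill and organise the space between, and in the zebrafish embryo this matrix shapes the notochord, the somite borders and the fin folds.

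RNA-seq was performed on whole bodies of Tubingen embryos at 36 hours post fertilization (hpf) with 1 library per genotype: wild type (WT), setd2+/- (HE) and setd2-/- (HO), where setd2 encodes a histone methyltransferase. According to the study the embryos of the genotypes were littermates and its mutants were made by CRISPR/Cas9; the labels leave the mutant line open, the study names the frameshift line E3fs1 as its default, and how many embryos made up a library is not given in the sources used here. Embryos of the study were kept in egg water with methylene blue and with N-phenylthiourea, an inhibitor of pigmentation. With 1 library per genotype no difference has a replicate check and no test between genotypes was possible. Differences are therefore described as log2 ratios of CPM (the counts of a gene relative to the scaled library total) with 95% intervals that cover counting error only, and a genotype cannot be told apart from the library that carries it. In RNA of whole embryos, fewer cells of a type and less RNA per cell cannot be told apart.

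The libraries summed to 13340950, 12760683 and 14160325 counts (WT, HE, HO). The targeted gene, setd2, had 1348, 1380 and 2087 counts and was highest in the library labelled HO, by 0.55 on the log2 scale against WT (0.45 to 0.65). By RT-qPCR at a later stage, the study found setd2 mRNA strongly lowered in homozygous mutants of the line E3fs1 but unchanged in the line E19fs1. The higher level in HO is thus opposite to the fall reported for E3fs1, and for E19fs1 no fall was reported. A higher level of the targeted gene in HO does not bear out the label of that library, and every direction below rests on the labels. WT, HE and HO stand throughout for the libraries so labelled. All genes of the 10 lists of tissue markers had counts in each library, none being at 0. The lens markers stood apart, with 3 of 3 genes higher by at least 0.5 in HE and in HO than in WT and summed levels of 41.8, 92.6 and 77.5 CPM in WT, HE and HO; their part in the results below was not tested.

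At 36 hpf the matrix genes were led by collagen I, the main fibril collagen of skin. The collagen I gene col1a1a had 34117, 36068 and 40904 counts in WT, HE and HO, or 425, 469 and 480 FPKM (reads per exonic length and library size, a level that can be compared between genes). It ranked 156th among tested genes in WT, 145th in HE and 135th in HO. The other collagen I chains, col1a2 at 170, 182 and 178 FPKM and col1a1b at 159, 166 and 171 FPKM, followed. These 3 genes were the only members above 100 FPKM in each library and held 34.2%, 37.3% and 35.2% of all counts on the members in WT, HE and HO. All members together took 1.293% of the counts in WT (exact 95% interval 1.287% to 1.299%), 1.288% in HE (1.282% to 1.294%) and 1.382% in HO (1.376% to 1.388%).

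With collagen I included, 11 members were at or above 50 FPKM in each library. Among them was hapln1a, a link protein that ties hyaluronan to proteoglycans, at 80.4, 74.0 and 91.5 FPKM in WT, HE and HO. The matrilin matn4 was at 73.4, 71.3 and 70.8 FPKM. The collagen II genes col2a1b (75.6, 71.9 and 79.9 FPKM) and col2a1a (64.2, 65.8 and 66.1 FPKM) encode the main fibril of cartilage and notochord sheath. The basement membrane collagen col4a5 stood at 65.1, 65.6 and 65.1 FPKM, which is level across the libraries. The median member had 9.74, 7.71 and 8.81 FPKM, against 5.21, 5.09 and 5.19 FPKM for all tested genes. At the other end col8a2, col10a1a, fbln7, lama3 and the fibrillin fbn2a were all under 2 FPKM.

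**Figure D1:**
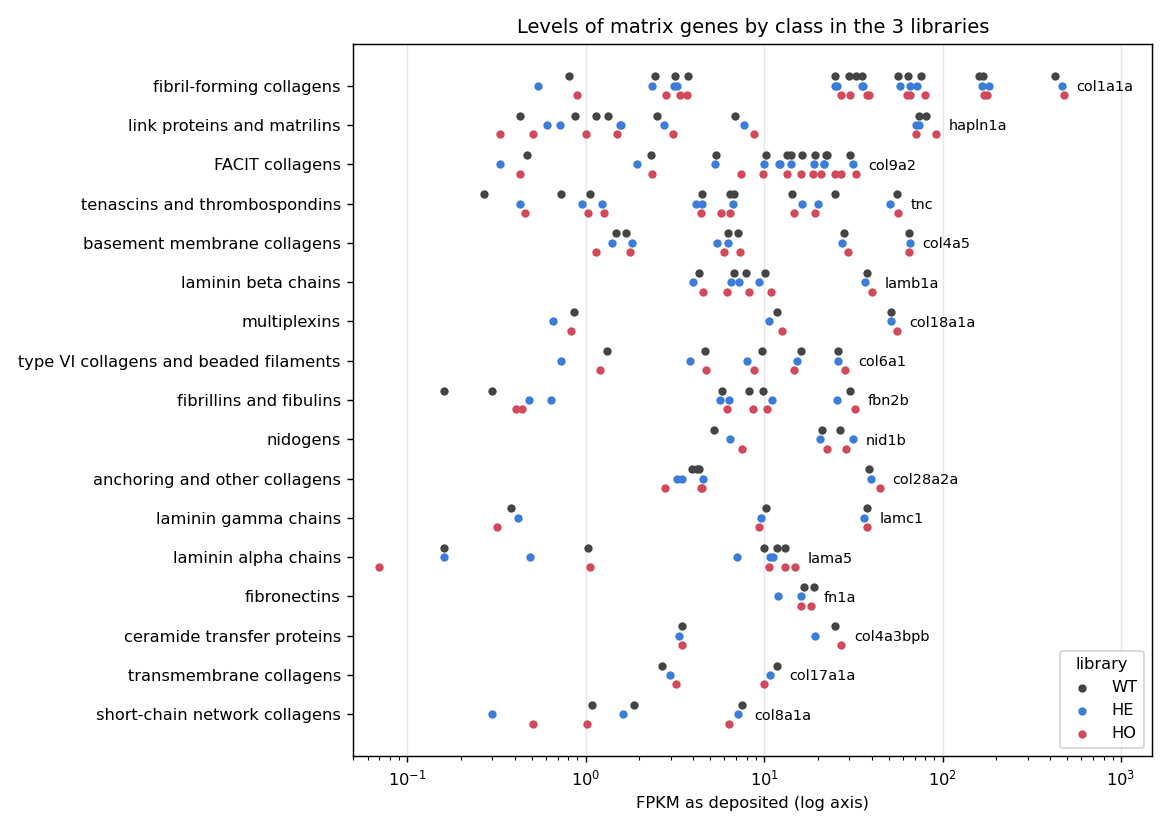
FPKM of each matrix gene by class on a log axis, with black points for WT, blue for HE and red for HO and the highest gene of each class named. In most classes the genes spread over a far wider range than the libraries of a gene do, and collagen I alone lies above 100 FPKM.

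HO against WT compares the library labelled setd2-/- with the library labelled wild type. The set as a whole lay slightly higher in HO: the median member had a log2 ratio of 0.084 (middle 50% of members from −0.069 to 0.144), against −0.0044 for all tested genes. Few members moved far. Only 3 of 91 were higher by at least 0.5 on the log2 scale, a 1.41-fold difference, where 5.09% of all tested genes were, and 4 were lower by as much, where 6.76% were. The 3 higher ones were nid1a, thbs2a and fbln7, and the 4 lower ones were col10a1a, lama3, col8a2 and matn1. Of these only nid1a and col8a2 had a mean of at least 50 counts, and the others are named after their values were seen. Past 1 lay fbln7 above (1.05% of tested genes) and col10a1a below (1.34%). The small shift was shared widely, with 61 members (67.0%) above 0 where 49.1% of tested genes were.

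The interval of the ratio lay above 0 in 31 members (11.8% of tested genes) and below 0 in 9 (11.6% of tested genes). Deeply counted genes have narrow intervals, so these shares were also read among the 34 members with a mean of at least 1000 counts. There 23 had an interval above 0, where 27.6% of the 2502 tested genes of such depth did, and 4 had one below 0, where 21.3% did. The 4 lower members were fn1b, thbs1b, col6a2 and col6a4a. The summed counts of all members were higher in HO than in WT by 0.10 on the log2 scale (0.091 to 0.109).

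HE against WT compares the library labelled setd2+/- with the same wild-type library. The median member had a log2 ratio of −0.024 (middle 50% from −0.174 to 0.075), with 0.0065 for all tested genes. Higher by at least 0.5 were 3 members (5.36% of tested genes), namely fbn2a, thbs2a and fbln7, all with means under 50 counts. Lower by at least 0.5 were 5 members (8.25% of tested genes), namely fn1b, col27a1b, lama2, col10a1a and the shorter of the col6a3 entries, of which fn1b alone had a mean above 100 counts. Again fbln7 was above 1 (0.981% of tested genes) and col10a1a below −1 (1.71%). Below 0 were 56 members (61.5%), where 49% of tested genes were. The interval was above 0 in 11 members (13.2% of tested genes) and below 0 in 19 (12.3% of tested genes). Where the mean was 1000 counts or more, 7 of 34 members had it above 0 and 10 below, where 31% and 18% of tested genes of such depth did.

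HO against HE shares a library with each of the other comparisons and is given for its own values. The median member had a log2 ratio of 0.106 (middle 50% from −0.053 to 0.236), with −0.0092 for all tested genes. Higher by at least 0.5 in HO than in HE were 6 members (7.65% of tested genes), namely lama1, col12a1b, col27a1b, lama2, col10a1a and the shorter col6a3 entry. Lower by as much were 6 members (6.72% of tested genes), namely col28a1a, col8a2, matn3a, lama3, hapln4 and fbln7. None was past 1 in either direction (1.43% and 1.26% of tested genes). The interval was above 0 in 36 members (13.7% of tested genes) and below 0 in 7 (15.2% of tested genes). Among members with a mean of at least 1000 counts it was above 0 in 20 of 34 and below 0 in 2, where 25.8% and 32.2% of tested genes of such depth had it so. Asked library by library, HO held the highest level of 51 members (56%, with 32.5% of tested genes), and HE the lowest of 44 (48.4%, with 33.8% of tested genes).

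**Figure D2:**
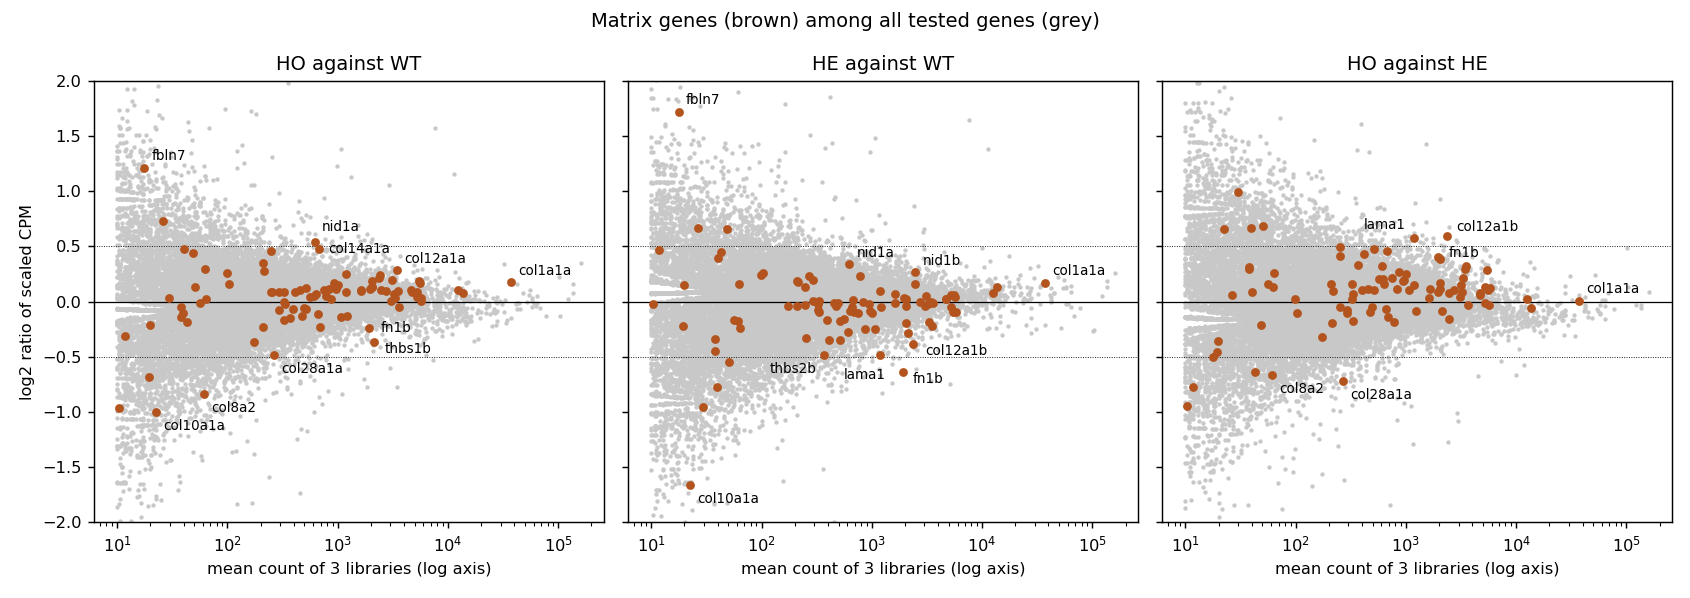
Log2 ratio of scaled CPM (vertical axis, cut at −2 and 2, so that tested genes beyond are not drawn) against the mean count of the 3 libraries on a log axis, with the 91 members in brown, all other tested genes in grey and dotted lines at −0.5 and 0.5. Nearly all members with many counts lie between the dotted lines, and most of those past them have few counts.

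Matrix genes are long, and length moved with the ratio over all genes. The median exonic length of the members was 5656 bases, against 2490 bases for tested genes, and 64 of the 91 members were among the longest 20% of tested genes (at least 4633 bases). In that class the median tested gene had a log2 ratio of 0.038 for HO against WT, −0.052 for HE against WT and 0.089 for HO against HE, and in the shortest 20% −0.064, 0.034 and −0.102. After the median of tested genes of like length was subtracted, the median member was at 0.041, −0.0025 and 0.045. Above 0 were then 56, 45 and 53 of the 91 members, where 50% of tested genes are by construction. For the 34 members with a mean of at least 1000 counts, the medians moved from 0.099, −0.011 and 0.107 to 0.067, 0.048 and 0.027. Tested genes of such depth were then at 0.011, 0.030 and −0.023, so that in HE against WT the deeply counted members were no longer on the low side. Much of the set-wide shift thus went with length, and in HE against WT nearly all of it. What makes the ratio follow length was not tested. For some of the genes below, the value after this subtraction is given beside the ratio.

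Fibril-forming collagens differed by little, mostly toward HO, and collagen I was a little higher in both HE and HO than in WT. In HO 12 of 14 were above WT (49.1% of tested genes), and 9 had an interval above 0 (11.8% of tested genes). All of these 9 but col5a3a had a mean of at least 1000 counts, and 27.6% of tested genes of such depth had an interval above 0. The 3 collagen I genes summed to a log2 ratio of 0.14 for HO against WT (0.13 to 0.16), 0.14 for HE against WT (0.13 to 0.16) and −0.0032 for HO against HE (−0.019 to 0.013). The gene col1a1a itself was at 2539, 2859 and 2876 CPM in WT, HE and HO, so that HE and HO lay together above WT. Markers of the fin fold, which holds collagen-producing cells, summed to 881, 959 and 962 CPM in WT, HE and HO over 4 of 4 genes, with none at 0 and with fbln1 in both lists, and their part was not tested. Against WT, and1 (0.20 in HE, 0.21 in HO) and and2 (0.15 and 0.088) were higher beyond counting error. Within it were fbln1 (0.20 and 0.090) and tfap2a (0.044 and −0.0008).

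Among the chains that control fibril width, col5a2a had 2220, 2330 and 2778 counts, and HO was above WT by 0.24 (0.16 to 0.32). The collagen XI chain col11a1a had 5268, 5152 and 6255 counts, higher in HO than in WT by 0.17 (0.11 to 0.22), whereas col11a1b had 3384, 2792 and 3660, lowest in HE by −0.19 against WT (−0.26 to −0.11), or −0.065 with the trend over length removed. The minor chain col5a3a had 222, 204 and 324 counts. It was the fibril chain with the largest ratio in HO against WT, 0.46 (0.21 to 0.72), while WT and HE were alike within counting error. The collagen II genes differed little: HO was above WT by 0.085 in col2a1b (0.030 to 0.139) and by 0.045 in col2a1a (−0.010 to 0.10). Notochord markers summed to 158, 179 and 167 CPM over 5 of 5 genes and cartilage and neural crest markers to 162, 160 and 166 CPM over 4 of 4, with none at 0. Most counts of the notochord list were on cav1 (1368, 1503 and 1612). In HO against WT cav1 (0.15) and tbxta (0.40) were higher and shha (−0.051) and epyc (−0.19) lower, only cav1 beyond counting error. In HE against WT cav1 (0.23) and shha (0.22) were higher beyond counting error, with epyc (0.13) and tbxta (−0.019) within it. The part of the notochord markers was not tested, and epyc is also in the list of proteoglycans below.

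FACIT collagens were higher in HO, with summed log2 ratios of 0.20 against WT (0.17 to 0.24) and 0.27 against HE (0.23 to 0.30). The median of the class was 0.112 and 0.188, and 0.102 and 0.118 with the trend over length removed. Collagen XII, which lies on fibrils of tendon, fascia and myosepta, held more of these counts than any other type. The copy col12a1a had 3204, 2995 and 4138 counts in WT, HE and HO, so that HO stood above both other libraries (0.29 against WT, 0.22 to 0.35). The copy col12a1b had 2393, 1721 and 2932 counts and was low in HE as well as high in HO. Its log2 ratio was −0.38 for HE against WT (−0.47 to −0.29), 0.21 for HO against WT (0.13 to 0.29) and 0.60 for HO against HE (0.51 to 0.68). With the trend over length removed these became −0.26, 0.15 and 0.42. The collagen XIV copy col14a1a had 594, 564 and 875 counts and was higher in HO than in WT by 0.48 (0.33 to 0.63), with WT and HE alike. Its partner col14a1b, at 506, 471 and 514 counts, was within counting error of WT in both. Collagen XVI, col16a1, had 1099, 1104 and 1383 counts and was higher in HO than in WT by 0.25 (0.13 to 0.37). The cartilage chains col9a1b and col9a2 were higher in HO than in WT by 0.17 (0.040 to 0.299) and 0.10 (0.0045 to 0.202). Within counting error of WT in HO were col9a3 (0.11, −0.0255 to 0.251) and col9a1a (−0.071, −0.2445 to 0.102).

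**Figure D3:**
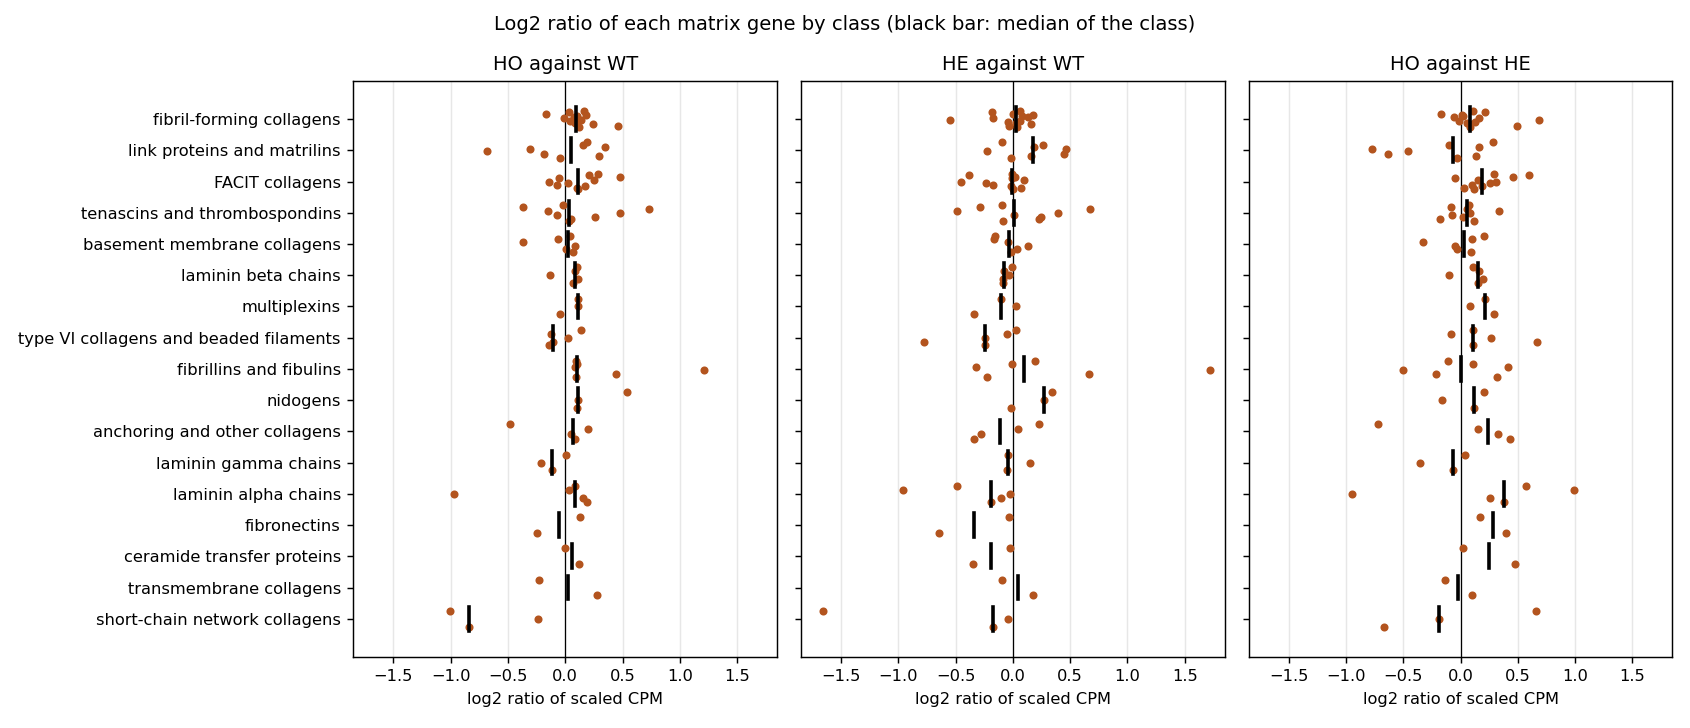
Log2 ratio of each matrix gene (brown points) by class in the 3 comparisons, with a black bar at the median of the class. The laminin alpha chains lie left of 0 in HE against WT and mostly right of 0 in HO against HE, and the short-chain network collagens lie left of 0 against WT.

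Laminin alpha chains were lower in HE. In HE against WT 12 of 13 laminins were below 0 (49% of tested genes), among them 5 of 5 alpha chains and 5 of 5 beta chains, though only 3 had an interval below 0 (12.3% of tested genes), all of them alpha chains. With the trend over length removed, 11 of 13 laminins and 5 of 5 alpha chains were still below 0, lama3 by only −0.0025. The median alpha chain then went from −0.19 to −0.071 for HE against WT. It went from 0.086 to 0.042 for HO against WT and from 0.38 to 0.21 for HO against HE. The sums that follow keep the trend over length. Summed alpha chains had a log2 ratio of −0.26 for HE against WT (−0.32 to −0.19), 0.15 for HO against WT (0.089 to 0.207) and 0.40 for HO against HE (0.34 to 0.47). Summed beta chains were nearer to 0, at −0.038 (−0.096 to 0.019), 0.076 (0.022 to 0.131) and 0.114 (0.058 to 0.171). Summed gamma chains did not leave counting error in any comparison, at −0.040 (−0.107 to 0.027), −0.020 (−0.084 to 0.045) and 0.021 (−0.045 to 0.087) in that order.

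The alpha chain lama1, part of the laminin that surrounds the notochord, had 1279, 857 and 1437 counts in WT, HE and HO. HE was the low library, with a log2 ratio of −0.49 against WT (−0.61 to −0.36), or −0.364 with the trend over length removed. HO and WT were alike within counting error (0.086, −0.024 to 0.196). The chain lama5, needed in zebrafish for the fin fold, had 2008, 1650 and 2426 counts, in the order HE, WT, HO with each step beyond counting error: −0.19 for HE against WT (−0.29 to −0.098) and 0.19 for HO against WT (0.11 to 0.28). The former became −0.071 with the trend over length removed. The chain lama4 of vessel basement membranes had 981, 858 and 1154 counts and was higher in HO than in WT by 0.15 (0.028 to 0.277). Endothelial markers summed to 171, 152 and 178 CPM over 3 of 3 genes, none at 0, and their part was not tested. The muscle chain lama2 had 35, 16 and 38 counts, so that its ratio of −0.96 for HE against WT has an interval from −1.99 to −0.15. The main partner chains lamb1a (2689, 2513 and 3049 counts) and lamc1 (3094, 2827 and 3281 counts) were alike in WT and HE within counting error.

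Collagen IV, the network of the same membranes, differed by little. The abundant chains col4a5 and col4a6 had log2 ratios of 0.0047 (−0.048 to 0.058) and 0.072 (0.0021 to 0.141, and 0.015 with the trend over length removed) for HO against WT. The chains of the common network, col4a1 (578, 486 and 630 counts) and col4a2 (418, 349 and 422 counts), were both lowest in HE, within counting error of WT. The minor chain col4a3 had 192, 175 and 157 counts and was lower in HO than in WT by −0.37 (−0.69 to −0.060). Summed over the 6 chains, the ratios were 0.021 (−0.018 to 0.060), 0.0023 (−0.038 to 0.043) and 0.019 (−0.021 to 0.058) for HO against WT, HE against WT and HO against HE. The multiplexin col18a1a, which carries the endostatin fragment, had 4527, 4325 and 5160 counts and was higher in HO than in WT by 0.107 (0.049 to 0.165).

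Nidogen 1 was higher in both HE and HO than in WT. The copy nid1a had 501, 595 and 773 counts in WT, HE and HO, ordered WT, HE, HO from low to high. Its log2 ratio against WT was 0.54 in HO (0.38 to 0.71), the largest of any member with a mean of at least 50 counts, and 0.34 in HE (0.17 to 0.51). The more abundant nid1b had 2268, 2565 and 2588 counts, and HE was above WT by 0.27 (0.19 to 0.35) and HO by 0.108 (0.027 to 0.191). The third gene, nid2a, had 1603, 1490 and 1817 counts and was within counting error of WT in HE.

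**Figure D4:**
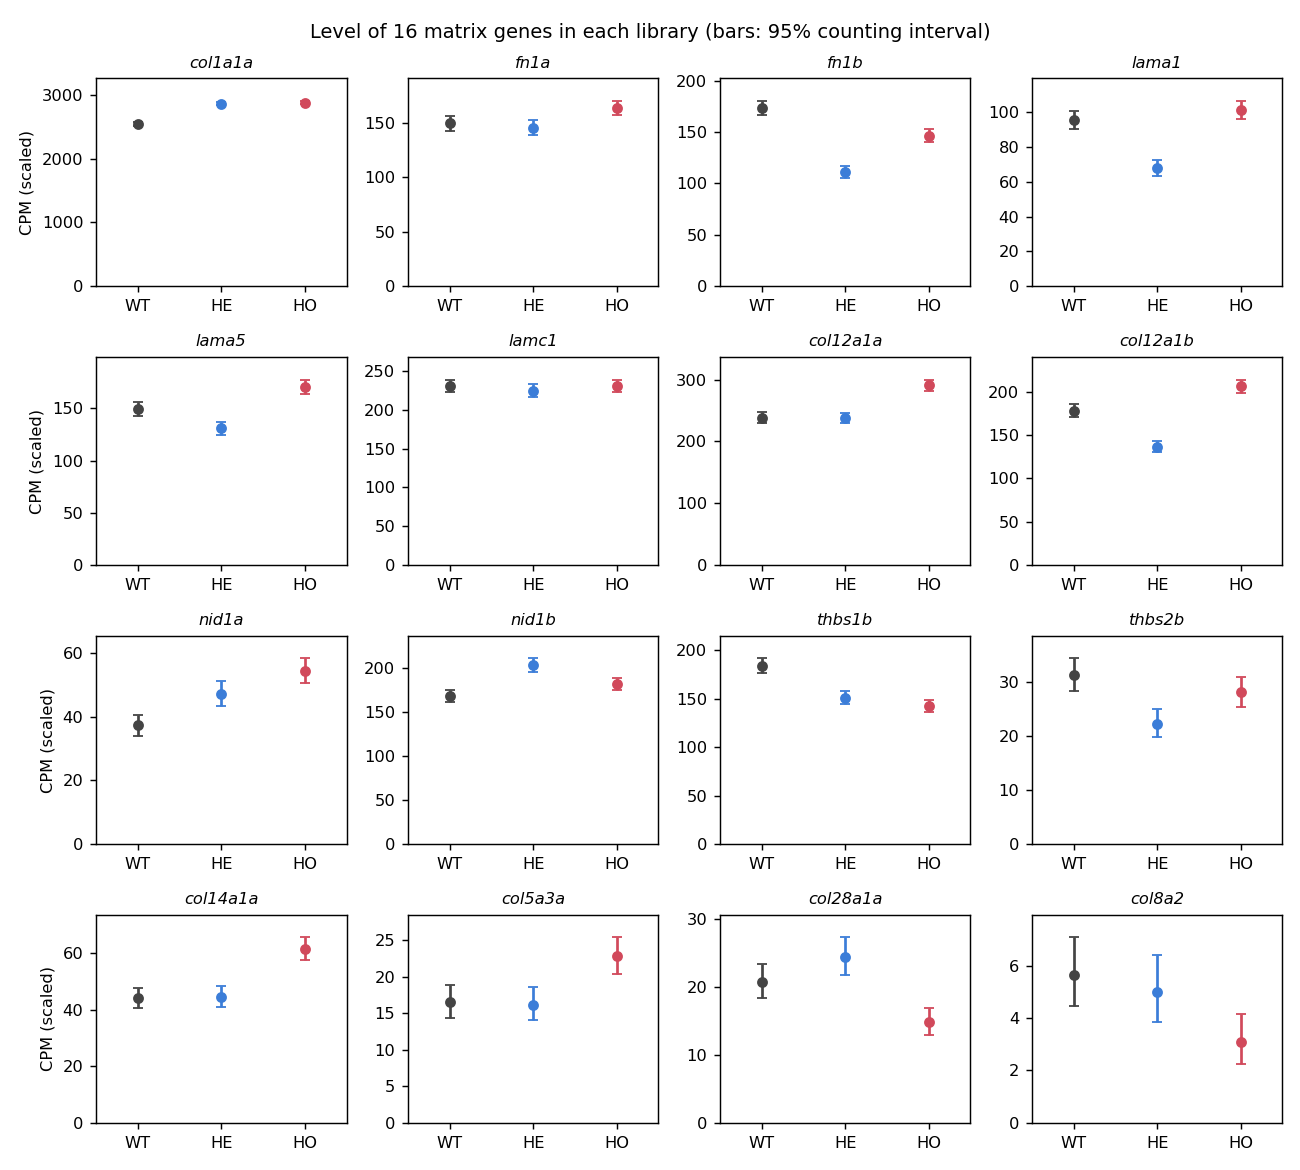
Scaled CPM of 16 matrix genes in WT (black), HE (blue) and HO (red), each axis starting at 0, with bars for the exact 95% counting interval of the single library. HE lies below both others in fn1b, lama1, lama5, col12a1b and thbs2b, and HO lies above both in col12a1a, nid1a, col14a1a and col5a3a.

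Fibronectin, the matrix of somite borders and of migrating cells, parted between its copies. The copy fn1b had 2328, 1399 and 2082 counts in WT, HE and HO, or 19.06, 11.97 and 16.06 FPKM. It was lower in HE than in WT by −0.64 (−0.74 to −0.55), the lowest ratio of that comparison among members with at least 50 counts, and lower in HO by −0.24 (−0.33 to −0.16). The copy fn1a had 2009, 1838 and 2327 counts and was not below WT beyond counting error in HE (−0.037, −0.129 to 0.055, and 0.084 with the trend over length removed). In HO it was above WT by 0.13 (0.043 to 0.217). This became 0.073 once the trend over length was removed, and its ratio for HO against HE, 0.17, became −0.0081.

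Collagen VI, which forms beaded filaments around muscle and connective tissue cells, showed chains that went apart. In HO against WT, col6a1 was at 0.14 (0.047 to 0.223) with 1960, 1873 and 2278 counts, whereas col6a2 was at −0.13 (−0.24 to −0.015) with 1275, 1158 and 1234. The chain col6a4a had 1162, 919 and 1116 counts and was lower than in WT by −0.25 in HE (−0.37 to −0.12) and by −0.14 in HO (−0.26 to −0.020), of which the former became −0.126 with the trend over length removed. The longer col6a3 entry had 907, 718 and 975 counts and was low in HE (−0.25, −0.39 to −0.10), at −0.124 with the trend removed. The shorter entry of the same symbol had 47, 25 and 46 counts, and whether both entries are parts of 1 gene is not shown by the table. Skeletal muscle markers summed to 16890, 15470 and 15860 CPM over 5 of 5 genes, none at 0. In HE against WT actc1b (−0.26) and ckma (−0.29) were lower and mylpfa (0.14), tnnt3a (0.21) and myhz2 (0.17) were higher, and their part was not tested.

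Fibrillins and fibulins, the scaffold of microfibrils and elastic fibres, were all above 0 in HO against WT (6 of 6, and 49.1% of tested genes), 2 of them with an interval above 0 (11.8% of tested genes). The fibrillin fbn2b, which zebrafish need for the fin fold and the notochord, held most of the counts with 3574, 2874 and 4045. It was lower in HE than in WT by −0.22 (−0.29 to −0.15) and higher in HO by 0.097 (0.032 to 0.162), which became −0.102 and 0.040 with the trend over length removed. The fibulin fbln5, a binder of elastic fibres, had 265, 198 and 298 counts and was low in HE (−0.33, −0.60 to −0.058). The fibulin fbln1 was within counting error of WT in both. The rare fbln7 had 7, 26 and 20 counts, so that its ratio of 1.72 for HE against WT has an interval from 0.74 to 3.43.

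Tenascin and thrombospondins modulate how cells attach. Tenascin C, tnc, was the most abundant at 5823, 5134 and 6293 counts, and its lower level in HE (−0.091, −0.145 to −0.036) turned to 0.031 when the trend over length was removed, as did its ratio for HO against HE, from 0.12 to −0.055. The thrombospondin thbs1b had 2478, 1905 and 2027 counts and was below WT in both other libraries, by −0.37 in HO (−0.46 to −0.29) and −0.29 in HE (−0.38 to −0.20). The related thbs2b had 420, 281 and 400 counts and was low in HE (−0.49, −0.71 to −0.27) and within counting error of WT in HO. In contrast thbs4b, which anchors muscle to the myosepta in zebrafish, had 732, 806 and 800 counts and was higher in HE than in WT by 0.23 (0.084 to 0.376).

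Of the link proteins and matrilins, hapln1a had 5288, 4651 and 6384 counts and was higher in HO than in WT by 0.19 (0.14 to 0.24) and lower in HE by −0.094 (−0.151 to −0.037). The related hapln3 had 183, 196 and 247 counts and was higher in HO than in WT by 0.35 (0.069 to 0.635). The abundant matn4 was within counting error of WT in both other libraries (−0.047, −0.112 to 0.019 in HO and −0.015, −0.082 to 0.053 in HE).

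The short-chain network collagens VIII and X were the class lowest in HO, with a summed log2 ratio against WT of −0.44 (−0.67 to −0.20). Below 0 were 3 of 3 genes, where 50.9% of tested genes were. The counts were few. Collagen VIII gene col8a2 had 76, 63 and 44 counts, and HO was below WT by −0.84 (−1.44 to −0.32). Collagen X gene col10a1a, which in fish marks cells that form bone, had 38, 10 and 19 counts and was below WT by −1.66 in HE (−3.01 to −0.80) and −1.0 in HO (−1.96 to −0.25). The more abundant col8a1a had 226, 206 and 203 counts, within counting error of each other.

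Epidermal anchors behaved unlike each other. The hemidesmosome collagen col17a1a had 744, 655 and 670 counts and was lower in HO than in WT by −0.23 (−0.39 to −0.080), whereas its copy col17a1b had 194, 206 and 249 and was higher by 0.28 (0.0017 to 0.557). The anchoring fibril collagen col7a1 had 632, 489 and 692 counts and was lower in HE than in WT by −0.28 (−0.45 to −0.11), and col7a1l, with 433, 320 and 486, by −0.34 (−0.56 to −0.13). With the trend over length removed these became −0.157 and −0.22. Collagen XXVIII parted by gene: col28a1a had 280, 309 and 211 counts and was lower in HO than in WT by −0.49 (−0.75 to −0.23), and col28a2a had 2946, 2859 and 3576 and was higher by 0.20 (0.13 to 0.27). Epidermal markers summed to 12330, 13940 and 13350 CPM over 4 of 4 genes, none at 0, highest in HE, and their part was not tested. Most counts of this list were on krt4 (124712, 133538 and 147070). In HE against WT krt4 (0.19), cyt1 (0.30) and krt5 (0.19) were higher beyond counting error and cldni (0.001) was not. In HO against WT krt4 (0.16) alone was beyond it, with cyt1 at −0.0016, krt5 at 0.0005 and cldni at −0.0645. The ceramide transfer genes, outside the matrix, had 531, 390 and 611 counts (col4a3bpb) and 325, 300 and 343 counts (col4a3bpa).

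Many of these genes are kept as a and b copies from the genome duplication of teleosts, and a ratio between copies within a library is free of scaling between libraries. At least 10 FPKM in either copy was reached by 19 pairs, and 16 of them had at least 10 counts of both copies in each library. The dominant copy was the same in all libraries in 15 of the 16. The exception was fibronectin: fn1a was at 0.878 of fn1b per length in WT (0.827 to 0.932), 1.34 in HE (1.25 to 1.43) and 1.14 in HO (1.07 to 1.21), so that fn1b led in WT and fn1a in HE and HO. Imbalance between copies ranged widely, with col18a1a 60.1 times col18a1b in WT and fbn2a 0.0099 times fbn2b.

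The ratio differed between HO and WT beyond counting error in 9 of the 16 pairs, being higher in 7 and lower in 2. Between HE and WT it was higher in 6 and lower in 0, and in the other 10 the interval held 0. The collagen XIV ratio col14a1a to col14a1b was 0.521 in WT, 0.532 in HE and 0.756 in HO, a log2 change of 0.54 from WT to HO (0.30 to 0.77). Nidogen 1 was alike, at 0.194, 0.204 and 0.263 (0.44, 0.25 to 0.62). Collagen XVII went the other way, with col17a1a at 4.41, 3.66 and 3.09 times col17a1b (−0.51, −0.82 to −0.20). Collagen XII stood apart in HE, with ratios of 1.37, 1.78 and 1.45. Laminin beta 1, at 8.72, 9.14 and 8.79, gave intervals that held 0 in each comparison. No pair has a replicate, and reads shared by near-identical copies could be split by the counting, which was not tested.

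**Figure D5:**
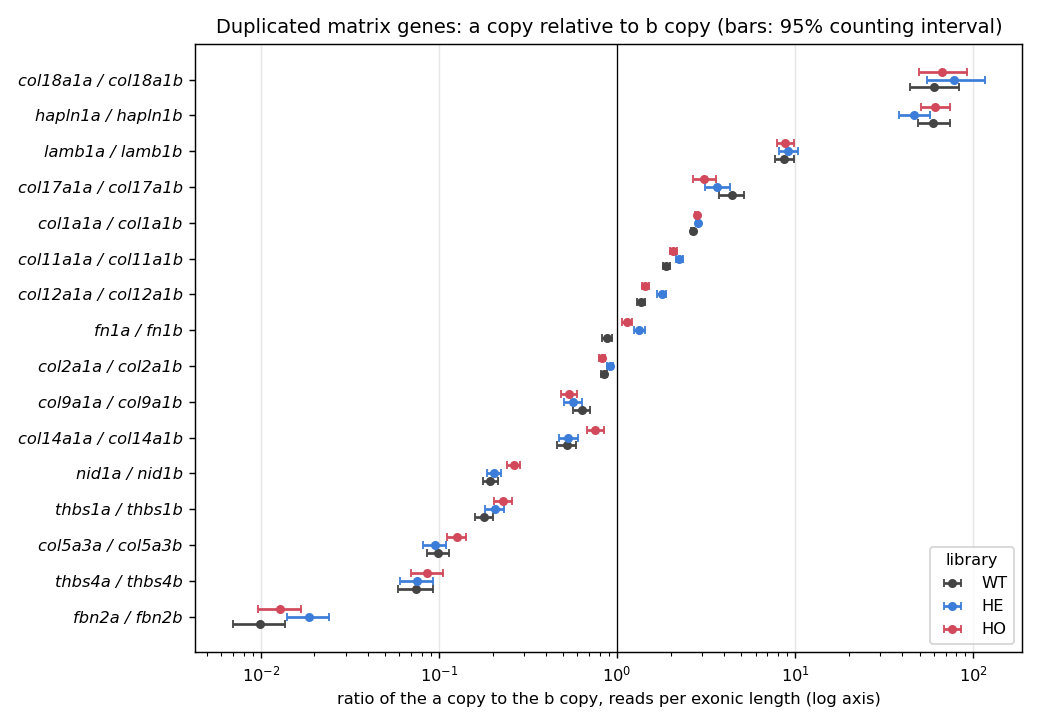
Ratio of the a copy to the b copy in reads per exonic length on a log axis for 16 pairs, with WT in black, HE in blue and HO in red and bars for the 95% counting interval. The fibronectin ratio lies below 1 in WT and above 1 in HE and HO, and the other pairs stay on 1 side.

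Chains that join in 1 trimer were compared in the same way. In the laminin of lama1, lamb1a and lamc1, lamb1a was close to lamc1 per length, at 0.995, 1.02 and 1.06, of which the last was above 1 beyond counting error (1.012 to 1.118), while lama1 stood at 0.265, 0.194 and 0.280 of lamc1. Against WT the lama1 ratio was thus lower in HE by −0.45 on the log2 scale (−0.59 to −0.30) and within counting error in HO (0.083, −0.046 to 0.213). These ratios keep the trend over length. With it removed, lama1 itself was at −0.364 and lamc1 at −0.0205 for HE against WT. In collagen I, col1a1a was 2.51, 2.58 and 2.70 times col1a2, higher in HO than in WT by 0.106 (0.066 to 0.146). In collagen VI, col6a1 was 1.63, 1.71 and 1.95 times col6a2, higher in HO than in WT by 0.26 (0.12 to 0.41). The pairs col4a1 with col4a2 (1.14, 1.15 and 1.23) and col9a2 with col9a3 (1.57, 1.66 and 1.56) had intervals of the change that held 0 in each comparison. The collagen XI chain col11a1a was at 0.878, 0.877 and 0.955 of col2a1a, higher in HO than in WT by 0.12 (0.045 to 0.197). Over all 13 chain pairs compared, the ratio in HO against WT was higher in 5, lower in 1 and within counting error in 7. The lower pair was col4a3 with col4a4, at 0.880, 0.779 and 0.641 in WT, HE and HO (−0.46, −0.85 to −0.061). These counts too stand without a background. The 13 pairs are not separate, since several share lamc1 or col1a2. They also include col4a5 with col4a1, which are not taken here to join in 1 trimer.

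Genes that make, cut or bind the matrix were looked at in 6 further lists. The 20 tested genes for modification and folding of procollagen had a median log2 ratio of 0.020 for HO against WT and 0.025 for HE against WT, with 0 genes higher (5.09% of tested genes) and 0 lower (6.76%) by at least 0.5 in HO and 1 higher (5.36%) and 2 lower (8.25%) in HE. The higher one in HE was serpinh1b, the collagen chaperone Hsp47, with 2367, 3509 and 3021 counts, at 0.66 against WT in HE and 0.27 in HO. The prolyl hydroxylase subunit p4ha1b went the other way in HE, with 405, 265 and 511 counts (−0.52), as did the folding isomerase fkbp10a with 87, 55 and 100 counts (−0.55). Their more abundant copies were not lower in HE than in WT: p4ha1a was at 0.17 (0.0071 to 0.341) and fkbp10b at 0.14 (−0.007 to 0.290). The hydroxylation partner p3h4, with 214, 151 and 269 counts, was past 0.5 only in HO against HE (0.65). For the 10 genes of procollagen export the medians were −0.081 and −0.0098, with none past 0.5, and for the 17 genes of processing and crosslinking 0.063 and −0.067. In that list the propeptide-cutting protease tll1 had 94, 60 and 90 counts (−0.54 for HE against WT) and the crosslinking oxidase loxl5b 47, 53 and 74 (0.55 for HO against WT).

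Integrins and their partners, the receptors of this matrix, were low in HE: 24 of 35 were below WT (49% of tested genes), 11 with an interval below 0 (12.3% of tested genes) and 1 with an interval above 0 (13.2%), and the median was −0.131, against 0.024 for HO against WT. The collagen receptor itga2.2 had 171, 97 and 175 counts (−0.72 for HE against WT), and the laminin receptor dag1, dystroglycan, had 3063, 2663 and 3465 (−0.11). Also past −0.5 were tln2b (−0.64) and itgb8 (−0.58) in HE against WT, and itga3a (−0.60), itgb8 (−0.59) and itga10 (−0.54) in HO against WT. Proteoglycans and sparc had medians of −0.126 for HO against WT and 0.0096 for HE against WT over 21 genes. By at least 0.5 against WT, 0 were higher (5.09% of tested genes) and 3 lower (6.76%) in HO. In HE 2 were higher (5.36%) and 2 lower (8.25%). The most abundant of them, sparc, a collagen-binding glycoprotein, had 10985, 11096 and 11477 counts, and HE was above WT by 0.11 (0.067 to 0.144). The neural proteoglycan ncanb was low in HE with 577, 344 and 702 counts (−0.65), as was spock1 with 112, 54 and 79 (−0.94, and −0.57 for HO against WT). The 2 higher in HE had few counts, prelp with 17, 46 and 19 (1.42) and bgnb with 35, 50 and 31 (0.58). Metalloproteinases and inhibitors, over 23 genes, had medians of −0.0050 and −0.159, with 4 higher (5.09% of tested genes) and 2 lower (6.76%) by at least 0.5 in HO and 1 higher (5.36%) and 5 lower (8.25%) in HE. The gelatinase mmp9 had 179, 78 and 151 counts (−1.09 for HE against WT), and the collagenase mmp13a had 87, 69 and 47 in its longer entry (−0.94 for HO against WT) and 21, 15 and 33 in its shorter one (0.53). Further ones low in HE against WT were mmp16b (−1.29), mmp15b (−0.59), mmp15a (−0.57) and adamts5 (−0.56). The 1 higher in HE was mmp17b, with 35, 57 and 32 counts (0.76). In HO against WT mmp30 was low (−1.02) and adamts9 (0.64) and mmp23bb (0.50) were high. The inhibitor timp4.1, with only 6, 6 and 18 counts, was also high in HO (1.25, 0.11 to 3.12).

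By symbol in a later assembly (GRCz12tu), 3 of 90 placed members (3.33%) lie on the chromosome of setd2, namely col14a1a, thbs3a and col6a4a, as do 4.51% of the placed tested genes. Linked genes can carry the alleles of the mutated chromosome along with the mutation. In HO against WT col14a1a (0.48) and thbs3a (0.48, with only 32, 40 and 48 counts) were high and col6a4a (−0.14) was low. The part of linkage in these values was not tested. Without these members the medians of the rest were 0.083, −0.024 and 0.103 for HO against WT, HE against WT and HO against HE. Leaving out so few members can hardly move a median, so these medians say nothing about the 3 linked genes.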

How the data were processed

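Total RNA of whole embryos at 36 hpf was sequenced in 3 libraries. The authors deposited raw counts per gene, with no normalization, and FPKM values. The study's methods name TopHat with GRCz10, Cufflinks for FPKM and a stranded kit, whereas the submitters' processing notes name HISAT2 2.0.2 and GRCz11 and the labels name other kits. The build and the use of strand are therefore not settled, the counting tool is not given in the sources used here, and no coordinates are printed. The deposited FPKM values equal counts over exonic length and library total within 0.005. The per-library tables held 0 values that differ from the series table, and 1 column headed with another library's name was not used.

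Counts were scaled by TMM over all genes (edgeR 4.0.16, R 4.3.3) and turned to log2 CPM with a prior count of 2, and a mean count of 10 or more was required of each gene. Intervals of 95% come from exact (Clopper-Pearson) binomial shares, for a ratio of ratios from the log odds, and cover counting error only. With 1 library per genotype no test was run and members are described beside all tested genes. The trend over length was removed by subtracting the median of tested genes of like exonic length, over 20 bins. Symbols gave the names, and 98 of the 99 were in the reference. The scaling and the log2 ratios of HO against WT were tested on simulated counts. The intervals, the removal of the trend over length, the sums and the ratios between copies or chains were not.

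The members, classes and lists were chosen with earlier results of these data known. Genes were named from setd2, up to 3 members of each class highest by FPKM, up to 8 highest and 8 lowest by ratio in each comparison with a mean of at least 50 counts, both copies of pairs with a mean of at least 10 FPKM in either, and of the other lists up to 3 genes highest by FPKM and those past 0.5 with at least 50 counts. Other genes were named after their values were seen. As alternatives, scaling used size factors of DESeq2 1.42.0 or library totals, the log scale used a prior count of 0.25 or deposited FPKM plus 1 or 0.1, the filter was dropped or set to a mean of 100 counts, and the trend over length was removed. Leaving out the CERT1 genes was added after seeing the data. Python 3.11.15, numpy 2.4.6, pandas 2.3.3, scipy 1.17.1 and matplotlib 3.10.9 were used.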

Additional observations from a re-analysis of the deposited data

How the results depend on the processing

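No paired analysis was possible because each genotype has 1 library, and no library could be left out. The medians and the counts past 0.5 kept their size with DESeq2 size factors, total counts, a prior count of 0.25, FPKM with a pseudocount of 0.1 and without the CERT1 genes. With FPKM and a pseudocount of 1, which pulls the ratios of low genes toward 0, the members higher by at least 0.5 numbered 0 (HO against WT), 0 (HE against WT) and 2 (HO against HE), and the lower ones 1, 2 and 1. With a minimum mean of 100 counts they numbered 1, 0 and 2 higher and 0, 1 and 1 lower, since 71 members remain. Of the 12017 tested genes of such depth, 141, 183 and 291 were higher and 205, 282 and 268 lower. With no filter, 6 members were higher in HO against WT and 7 in HE against WT. Lower ones were added too, namely col28a2b (−1.03) and hapln2 (−2.0) in HO against WT. In HE against WT they were hapln2 (−1.38) and col10a1b (−0.71). In HO against HE, col10a1b and nid2b joined the higher ones and col28a2b, col5a2b and hapln2 the lower ones. For no filter and for FPKM with a pseudocount of 1, no share of all genes is given here. Removing the trend over length gave medians of −0.0025 for HE against WT and 0.045 for HO against HE, and, among ratios beyond counting error, turned tnc in HE against WT (0.031) and HO against HE (−0.055), fn1a in HO against HE (−0.0081) and col4a6 in HO against HE (−0.084). Ratios within counting error changed sign too, among them fn1a in HE against WT (0.084) and col4a5 (−0.027) and col11a1b (−0.026) in HO against WT. Of the other values of named genes, 32 moved out of their counting interval, 27 of them when this trend was removed, and 1038 stayed within it. Depth limits the members under 50 counts, whose intervals are wide; the spread between embryos or libraries of 1 genotype is unknown.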
